A study of Mus musculus with 81 samples.

Results

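The retinoic acid genes described here are 9 of the 22869 genes in the processed table: Rdh10, Aldh1a2, Crabp1, Crabp2, Cyp26b1, Rara, Rarb, Rarg and Rxra. They were chosen by name for their roles in making, carrying, breaking down and sensing retinoic acid, and each gene is given by its transcript row of highest mean. They were measured in 81 single cells of the mouse pancreas at embryonic day 13.5, from wild-type embryos of the CD1 strain. The cells were freed with trypsin, captured on a microfluidic device and sequenced one library per cell. The labels give 1 group with no treatment and name no animal, so the 81 cells count as 1 sample, SDs are spreads over cells, and no test was made between cells.

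Retinoic acid is made from retinol in successive oxidations, the first by retinol dehydrogenases and the last by retinaldehyde dehydrogenases. It leaves the cell that made it, is held in the cytoplasm by small binding proteins, is broken down by cytochrome P450 enzymes of the Cyp26 family, and acts on genes through retinoic acid receptors paired with retinoid X receptors. In the embryonic gut and pancreas the mesenchyme and the mesothelium are known sources of the signal, and the epithelium is known to depend on it during budding and endocrine differentiation.

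The receptor pair binds DNA at repeats of a 6-base element. Promoters from RefSeq on build GRCm38.p6, from 250 bases before the start of a gene to 50 after it, were available for 7 of the 9 genes and were searched on both strands for direct repeats of AGGTCA, of the variant spelling GGGTCA, of the variant AGTTCA, or of the variant GGTTCA, in any combination. With 5 bases between the elements, a repeat was present in 32 of 32851 windows (0.0974%). Rarb was the only one of the 7 genes with it, and Cyp26a1, a further retinoic acid hydroxylase gene, was the only one of 41 other retinoid pathway genes with a promoter. Their promoter stretches are shown because Rarb is a textbook target of its own ligand and its level varied strongly between cells. The levels of other members, such as Rdh10 and Crabp1, varied strongly as well. Capitals mark the repeat.
Rarb, chr14:16575488-16575589, minus strand: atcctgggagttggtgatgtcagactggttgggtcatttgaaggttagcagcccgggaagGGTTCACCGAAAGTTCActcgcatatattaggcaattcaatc
Cyp26a1, chr19:37697716-37697807, plus strand: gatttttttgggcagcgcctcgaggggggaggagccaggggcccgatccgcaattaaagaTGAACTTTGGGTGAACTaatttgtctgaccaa
In Rarb the repeat runs from 53 to 37 bases before the start. In Cyp26a1 it runs from 32 to 16 bases before the start, and the element is read on the opposite strand. With 1 base between the elements 0.222% of windows had a repeat, and with 2 bases 0.268%, none of them in the 7 genes. A match is a description of letters, and binding was not measured.

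Levels are in RPKM, that is read numbers divided by the length of the transcript and by library size, so levels of genes of different length can be set side by side. A gene was called detected in a cell at 1 RPKM. Depth, estimated from what 1 read is worth in each library, had a median of 3.47M reads. It was 1.64M or more for 77 cells, and between 19.5K and 415.6K for C3, C61, C94 and C43, so that a single read there can be worth more than 1 RPKM. Between 2353 and 6311 genes per cell were detected. Clustering on other genes, with these 9 and the wider retinoid pathway left out, gave 69 mesenchymal-like cells, 4 epithelial-like cells (C43, C47, C82 and C95), 2 endocrine-like cells (C24 and C56), 4 leukocyte-like cells and 2 endothelial-like cells (C22 and C72). All 12 cells outside the mesenchymal-like class also held at least 3 mesenchyme markers at 10 RPKM. Among the mesenchymal-like cells, C91 held 6 of 12 epithelial and 4 of 20 endocrine markers at that level, C3 held 6 of 14 leukocyte markers and C45 held 6 of 9 neural crest and glial markers. C13, C29, C37 and C41 each held 3 of 7 mesothelial markers, and C21 held 4 of 6 pericyte markers. In C13 the collagen genes Col1a1 and Col3a1 were at 0 and 0.367 RPKM, with Upk1b, a mesothelial marker, at 320.9 and Epcam at 51.6.

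Rdh10 was the only one of the 9 genes detected in most cells. It was found in 52 of 81 (64.2%, Clopper-Pearson 95% interval 52.8% to 74.6%), while Rarg was found in 32 (39.5%), Cyp26b1 in 26 (32.1%), Rarb in 23 (28.4%), Rara and Rxra in 22 each (27.2%), Crabp1 in 16 (19.8%), Aldh1a2 in 10 (12.3%) and Crabp2 in 4 (4.94%). The intervals cover counting error only. Of the 13237 genes above 0 in at least 3 cells, 22.6% were detected in at least 50% of cells, and 1 of the 9 was. In mean level on the log2(RPKM + 1) scale the order was Rdh10 (2.75 ± 2.57, SD over 81 cells), Rarg (1.24 ± 1.59), Rarb (1.22 ± 1.96), Cyp26b1 (1.05 ± 1.61), Crabp1 (1.001 ± 2.17), Rara (0.97 ± 1.74), Rxra (0.79 ± 1.30), Aldh1a2 (0.61 ± 1.71) and Crabp2 (0.32 ± 1.30). No 2 neighbours in this order differed by as much as the SD over cells. Without the 4 cells of low depth each share stayed within its interval, with Rdh10 at 48 of 77 and Cyp26b1 at 24 of 77.

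**Figure D1:**
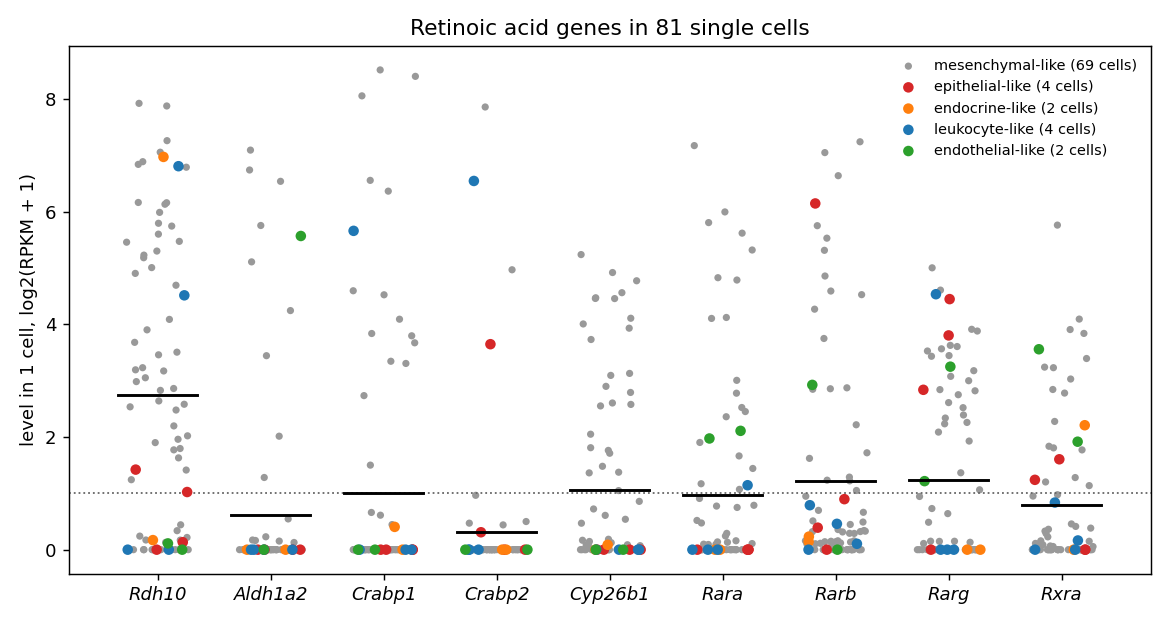
Level of each gene in each of 81 cells on the log2(RPKM + 1) scale, 1 point per cell coloured by class; black bars are means over all cells and the dotted line is 1 RPKM. Rdh10 has the highest mean (2.75), and all cells with Cyp26b1 above the line are mesenchymal-like.

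**Figure D2:**
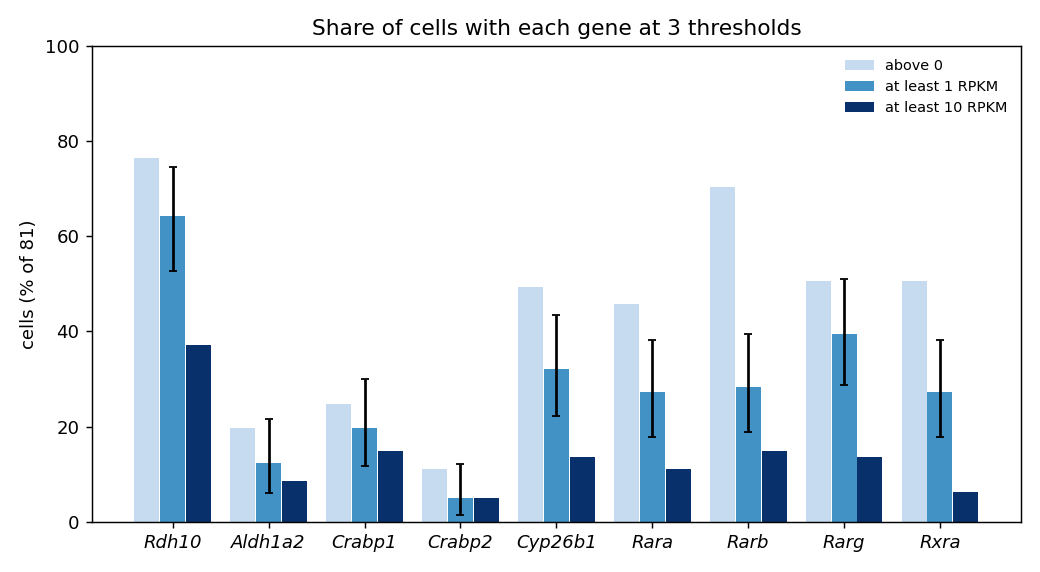
Percent of 81 cells with each gene above 0, at 1 RPKM and at 10 RPKM; error bars are Clopper-Pearson 95% intervals of the 1 RPKM share. Rarb has the widest step between the first bars, 57 cells above 0 and 23 at 1 RPKM.

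Rdh10 (chromosome 1, 16095963 to 16122631, mm9, plus strand) encodes the retinol dehydrogenase of the first oxidation. Over all cells it ran from 0 to 242.1 RPKM (C28) with a median of 4.58, and its mean was 27.5 ± 49.8 RPKM. Among the 52 cells with it the median was 14.99 RPKM, and the 5 highest cells held 39.7% of the summed level. The second highest value, 234.3 RPKM, was in C61, a cell of low depth. It was found in 47 of 69 mesenchymal-like cells (median 5.24 RPKM) and in 2 of 4 leukocyte-like cells. The epithelial-like cells had 1.03 (C43), 1.68 (C47), 0 (C82) and 0.0963 RPKM (C95), so all 4 lay below the mesenchymal-like median. The endocrine-like cells differed from each other, with 0.125 RPKM in C24 and 124.7 in C56, and the endothelial-like cells had at most 0.0802.

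Aldh1a2 (chromosome 9, 71063596 to 71144050, plus strand) encodes the retinaldehyde dehydrogenase of the last step and was rare but high where present. The 10 cells were C15 (135.7 RPKM), C11 (106.0), C29 (92.1), C35 (53.1), C72 (46.5), C38 (33.5), C34 (17.97), C30 (9.89), C33 (3.04) and C16 (1.43). Of these, 9 were mesenchymal-like and C72 was endothelial-like; the 6 epithelial-like and endocrine-like cells and the 4 leukocyte-like cells were listed at 0. The median among cells with it, 40.02 RPKM, was above that of 94.98% of the 1553 genes detected in 8 to 12 cells, whose own median was 9.80. The other retinaldehyde dehydrogenase genes of the pathway list, Aldh1a1, Aldh1a3, Aldh1a7 and Aldh8a1, were listed at 0 in every cell, so Aldh1a2 was the only one of these 5 genes with reads. A count of 0 allows up to 3.70% of cells with reads of a gene, which covers counting error only and sets no limit on cells that express it below detection.

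The detections of Aldh1a2 were uneven over the cell numbers. It was found in 9 of the 40 cells numbered 1 to 48 (22.5%, 10.8% to 38.5%) and in 1 of the 41 numbered 49 to 96 (2.44%, 0.0617% to 12.9%). Of the 1553 genes detected in 8 to 12 cells, 1.74% were split at least as unequally. Restricted to mesenchymal-like cells the counts were 9 of 33 and 0 of 36. The median number of genes detected per cell was 4291 in the first set and 3850 in the second, and the part of this in the split was not tested. Crabp1 was also more frequent in the first set, 11 of 40 against 5 of 41, and the intervals of the sets overlap for both genes; Cyp26b1 was found in 12 and 14 cells and Rdh10 in 25 and 27. The labels do not say what the numbers stand for beyond the cell. The column headers also carry a letter and a number that read as a plate position, and by these the first set lies in plate columns 1 to 3 and 7 to 9 and the second in the others.

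**Figure D3:**
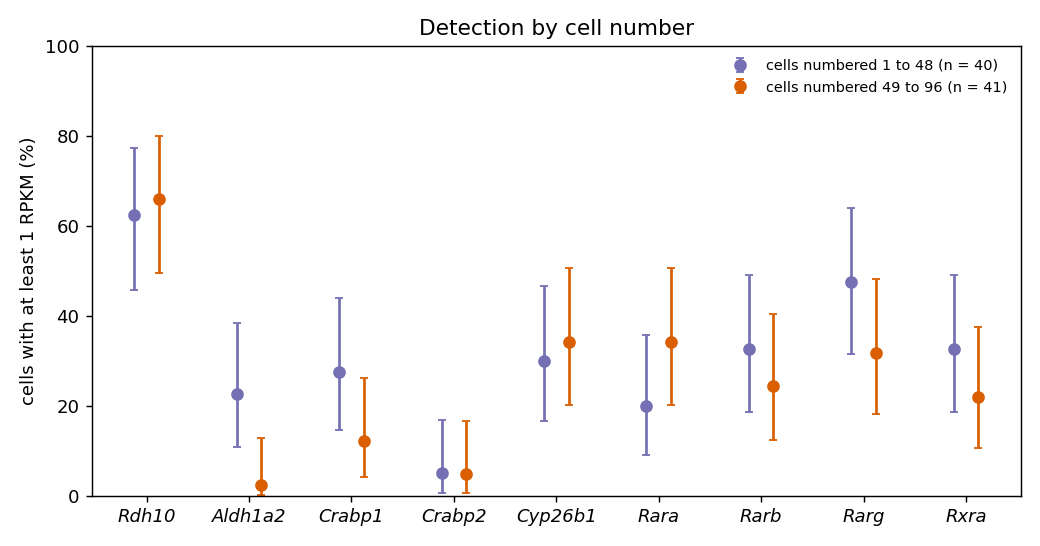
Percent of cells with each gene at 1 RPKM among cells numbered 1 to 48 and 49 to 96, with Clopper-Pearson 95% intervals. Aldh1a2 is at 22.5% and 2.44%, while Rdh10 is at 62.5% and 65.9%.

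Crabp1 and Crabp2 encode cellular retinoic acid binding proteins; the first is linked to handling and breakdown of the ligand in the cytoplasm and the second to its delivery to nuclear receptors. Crabp1 (chromosome 9, 54612615 to 54620916, plus strand) ran from 0 to 365.7 RPKM, with a median of 0 over all cells and of 19.045 among the 16 cells with it. The 3 highest cells, C29 (365.7), C35 (337.8) and C87 (265.5), stood well above the fourth, C25 at 93.2 RPKM. Of the 16 cells, 15 were mesenchymal-like and C36, at 49.6 RPKM, was leukocyte-like. Crabp2 (chromosome 3, 87752615 to 87757294, plus strand) was found in C29 (231.4 RPKM), C54 (92.5, leukocyte-like), C8 (30.3) and C82 (11.5, epithelial-like). C29 alone held 62.9% of its summed level. Only C8 and C29 had both genes.

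Cyp26b1 (chromosome 6, 84521408 to 84543902, minus strand) encodes a retinoic acid hydroxylase that clears the ligand. All 26 cells with it were mesenchymal-like (26 of 69, 37.7%, 26.3% to 50.2%), and none of the 12 other cells reached 1 RPKM. Its levels were modest, from 1.07 to 36.8 RPKM (C6) with a median of 7.003 among cells with it, against a median of 11.8 over the 2103 genes of similar detection. The mesenchymal marker Tcf21, a factor of visceral mesenchyme, was found in 24 of the 26 cells (92.3%) and in 25 of the 43 other mesenchymal-like cells (58.1%). Within cells numbered 1 to 48 these shares were 100% and 52.4%, and within 49 to 96 they were 85.7% and 63.6%. Cyp26a1 was found in 2 cells, C11 (8.31 RPKM) and C21 (7.61), and Cyp26c1 was listed at 0 throughout, so Cyp26b1 was the most widely detected of the 3 family genes.

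By likeness over the 69 mesenchymal-like cells, among 7041 genes detected in at least 20% of them, the 5 genes nearest to Cyp26b1 were Smg5 (Spearman rho 0.51), Rbm22 (0.45), Tlx1 (0.44), Tmem60 (0.42) and Tmsb4x (0.42). Tlx1, a homeobox factor gene known for its role in spleen formation, was found in 18 of the 26 cells with Cyp26b1 (69.2%) and in 13 of the 43 without (30.2%). Its median level was 37.6 RPKM in the former and 0.104 in the latter. The shares were 66.7% and 23.8% within cells numbered 1 to 48, and 71.4% and 36.4% within 49 to 96. Tlx1 was picked by its rank over these same cells, so the shares describe that choice and are not independent of it. Aldh1a2 did not follow Tlx1, which was found in 3 of 9 mesenchymal-like cells with Aldh1a2 and in 28 of 60 without. The remaining 8 cells with Cyp26b1 had no Tlx1 at 1 RPKM. Nkx2-5, a further homeobox gene counted beside Tlx1, was not more frequent in cells with Cyp26b1. It was found in 3 of the 26 cells with Cyp26b1 (11.5%) and in 8 of the 43 without (18.6%), which are small counts. The median of Cyp26b1 was 0.454 RPKM in mesenchymal-like cells with Nkx2-5 and 0.076 in those without, both below detection.

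For Rdh10 the nearest gene was Col1a1, a fibrillar collagen gene, with rho 0.48 (0.64 over the 33 mesenchymal-like cells numbered 1 to 48 and 0.32 over the 36 numbered 49 to 96). Col1a1 had a median of 33.5 RPKM in the 47 mesenchymal-like cells with Rdh10 and 8.49 in the 22 without. The next were Hsd17b12 (0.41), Akap1 (0.40), Peli1 (0.38) and Aebp1 (0.38). For Aldh1a2 the highest were Prkrir (0.47), Bcl9 (0.41), Zfp790 (0.40), Adamts1 (0.40) and Praf2 (0.40), of which Zfp790 and Praf2 were below 0 over cells numbered 49 to 96, where no mesenchymal-like cell had Aldh1a2 at 1 RPKM. For Crabp1 they were Igfbp2 (0.43), Adnp2 (0.41), 2010001M06Rik (0.40), Zfp346 (0.40) and Fis1 (0.39); over cells numbered 1 to 48 and 49 to 96, Igfbp2 was at 0.64 and 0.05 and Fis1 at 0.61 and 0.01. For Rara they were Pdhb (0.47), Kctd5 (0.45), Eif4ebp2 (0.44), AY074887 (0.43) and Aurkaip1 (0.43), and for Rarb Atp6v0d1 (0.45), Ibtk (0.43), Tmtc4 (0.41), Actg1 (0.39) and Tmem57 (0.39). For Rarg they were Med8 (0.46), Snx27 (0.42), Epn2 (0.41), Zfand1 (0.41) and Ncor1 (0.40), the last a corepressor gene of nuclear receptors, and for Rxra Cenpt (0.42), 2810004N23Rik (0.42), Abl1 (0.41), Mgat2 (0.40) and Hltf (0.40). Of the 40 genes named in this way, 11 had a rho under 0.2 in at least 1 of the sets of cell numbers. No member in the pool of 7041 genes was among the 5 nearest genes of another. Aldh1a2 (9 of 69 mesenchymal-like cells) and Crabp2 (2 of 69) were detected in too few cells to enter that pool. They could therefore not be named for another member, and no nearest genes were sought for Crabp2. The rho values given here are the highest of those 7041 and are descriptions of cells that share 1 sample and differ in depth. The rho of the 9 genes with the number of genes detected per cell lay between -0.15 and 0.24.

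**Figure D4:**
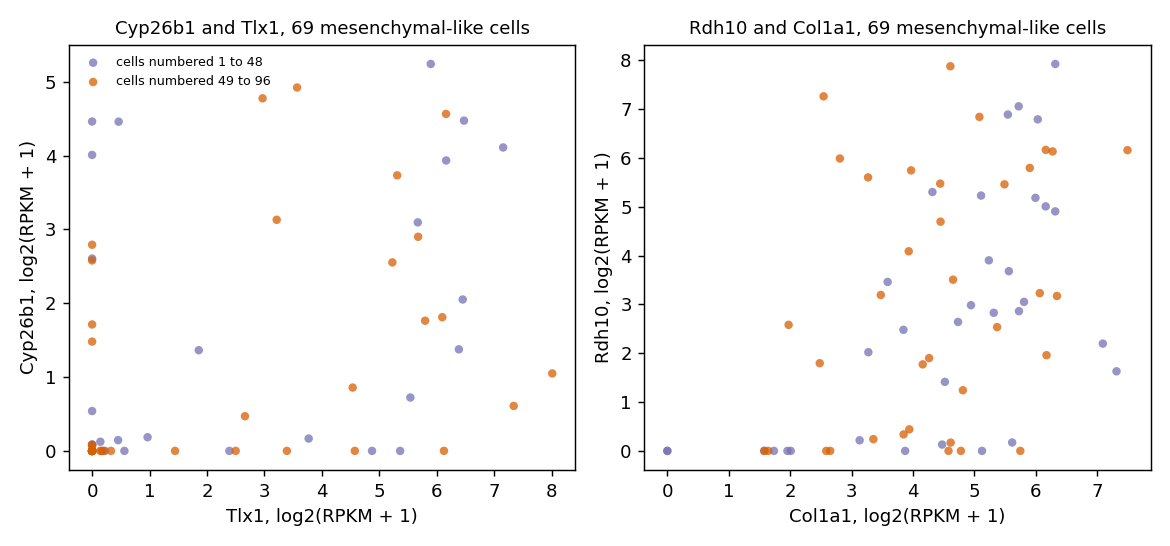
Levels in the 69 mesenchymal-like cells on log2(RPKM + 1) scales, Cyp26b1 against Tlx1 on the left and Rdh10 against Col1a1 on the right, coloured by cell number. The rank correlations are 0.44 and 0.48, and cells with 1 gene of the pair at 0 are present in both plots.

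Of the 3 retinoic acid receptor genes, Rarg (chromosome 15, 102065371 to 102076783, minus strand) was found in the most cells at 1 RPKM. That order depends on the threshold: Rarb was above 0 in 57 cells and Rarg in 41, and at 10 RPKM they were in 12 and 11. Rarg ran from 0 to 31.1 RPKM (C49), with a median of 7.22 among the 32 cells with it. It was found in 3 of 4 epithelial-like cells, at 20.8 (C95), 12.97 (C47) and 6.15 RPKM (C82), in both endothelial-like cells, in 1 leukocyte-like cell and in 26 of 69 mesenchymal-like cells.

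Rara (chromosome 11, 98801025 to 98836256, plus strand) ran up to 143.5 RPKM in C19, with a median of 5.31 among its 22 cells. It was listed at 0 in all 6 epithelial-like and endocrine-like cells and was found in 19 mesenchymal-like cells, both endothelial-like cells and 1 leukocyte-like cell. Its 4 transcript rows, like the pairs of rows of Rarg and Cyp26b1, were near-fixed multiples of one another, so they hold no separate isoform information. Of its 50-base windows, 0.487% also occur in transcripts of other genes; for each of the 8 other members the share was 0%.

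Rarb (chromosome 14, 17263354 to 17407724, minus strand), the receptor gene with the repeat shown above, had the widest range of the 3. It was above 0 in 57 cells but reached 1 RPKM in 23, and the 34 cells between these levels had a median of 2.19 estimated reads. Each library carries a pair of index sequences, per the labels, and Rarb was above 0 in 9 of 12 cells that share an index with C8, its highest cell, and in 47 of 68 that share none. The 5 highest cells were C8 (150.5 RPKM), C37 (131.6), C41 (98.8), C95 (69.9) and C11 (52.9). All 5 also had high Dhrs3, which encodes a retinaldehyde reductase and is a known retinoic acid target: 540.8 RPKM in C8, 736.6 in C37, 250.2 in C41, 259.7 in C95 and 410.4 in C11. The 6 cells ranked next for Rarb, from 45.2 RPKM (C33) down to 18.3 (C3), all had Dhrs3 below 1 RPKM. C3 is a cell of low depth, where 1 read in 1 kb is worth 51.2 RPKM, so its Dhrs3 at 0 and its Rarb level both tell little. Dhrs3 was found in 6 of the 12 cells with Rarb at 10 RPKM and in 13 of the 69 others (18.8%). Without cells of low depth the counts were 6 of 11 and 13 of 66. Stra6, the retinol receptor gene, was found in 2 of the same 12 cells (16.7%) and in 7 of the 69 others (10.1%). Cyp26a1 was found in 1 of the 12 and in 1 of the 69. Of the 5 highest cells, only C8 had Stra6 (9.52 RPKM) and only C11 had Cyp26a1 (8.31 RPKM). These comparisons were chosen after the values were seen.

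High Dhrs3 was also present without Rarb. Of the 13 cells with Dhrs3 at 100 RPKM, 6 had Rarb at 1 RPKM and 7 did not, among them C13, the second highest for Dhrs3 at 729.1 RPKM, with Rarb at 0. All 4 leukocyte-like cells had Dhrs3, from 13.1 to 244.5 RPKM, and none had Rarb at 1 RPKM. The 4 cells with 3 mesothelial markers all had Dhrs3, at 729.1 (C13), 108.2 (C29), 736.6 (C37) and 250.2 RPKM (C41), and the part of these cells in the pattern was not tested. Over all 81 cells the Spearman rho was 0.04 and Pearson's r on log2 values 0.33. The 2 mesenchymal-like cells numbered 49 to 96 with Rarb at 10 RPKM had no Dhrs3 at 1 RPKM, while 5 of the 9 numbered 1 to 48 had it. Dhrs3 was also uneven over the cell numbers among mesenchymal-like cells with Rarb below 10 RPKM. It was found in 6 of 24 numbered 1 to 48 and in 2 of 34 numbered 49 to 96. A cluster of 5 mesenchymal-like cells, C8, C11, C12, C29 and C41, formed without these genes yet had Dhrs3 as its leading gene, with a median of 313.5 RPKM. All 5 are numbered 1 to 48, and the part of the cell numbers in this cluster was not tested. Of these 5 cells, 4 had Rarb, 3 each had Rdh10, Crabp1, Cyp26b1 and Rarg, 2 each had Aldh1a2 and Crabp2, and 1 each had Rara and Rxra. Over all 81 cells the shares were 28.4% for Rarb, 64.2% for Rdh10, 19.8% for Crabp1, 32.1% for Cyp26b1 and 39.5% for Rarg. They were 12.3% for Aldh1a2, 4.94% for Crabp2 and 27.2% for Rara and for Rxra. C11 was also one of the 2 cells with Cyp26a1, and the other, C21, had Dhrs3 at 170.2 RPKM and no Rarb.

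Rxra (chromosome 2, 27532721 to 27618839, plus strand), the partner receptor gene, was low in most cells. It ran from 0 to 53.3 RPKM (C52), the second highest cell was C25 at 16.1, and the median among its 22 cells was 4.86 RPKM. It was found in 17 mesenchymal-like, 2 epithelial-like, 1 endocrine-like and both endothelial-like cells. Rxrb was found in 18 cells and Rxrg in 3, and 36 of 81 cells (44.4%) had at least 1 of the 3 retinoid X receptor genes.

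At least 1 retinoic acid receptor gene was found in 55 of 81 cells (67.9%, 56.6% to 77.8%). Exactly 1 was found in 36 cells, 2 in 16 and all 3 in 3, so a single receptor gene was the most frequent state. Rarg alone was found in 17 cells, Rarb alone in 10 and Rara alone in 9. Rxra accompanied a retinoic acid receptor gene in 17 of these 55 cells, and any retinoid X receptor gene did so in 23. Of the 26 cells with no retinoic acid receptor gene, 5 had Rxra and 13 had any retinoid X receptor gene. Rxra was found in 13 of the 32 cells with Rarg (40.6%) and in 9 of the 49 without (18.4%), the largest joint count among the receptors, and the 2 genes had rho 0.25 over mesenchymal-like cells. Rxra was found in 8 of 23 cells with Rarb (34.8%, against 24.1% of cells without) and 5 of 22 with Rara (22.7%, against 28.8% of cells without). At these depths an undetected receptor gene is not an absent one: with any value above 0 counted, 75 of 81 cells had at least 1.

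**Figure D5:**
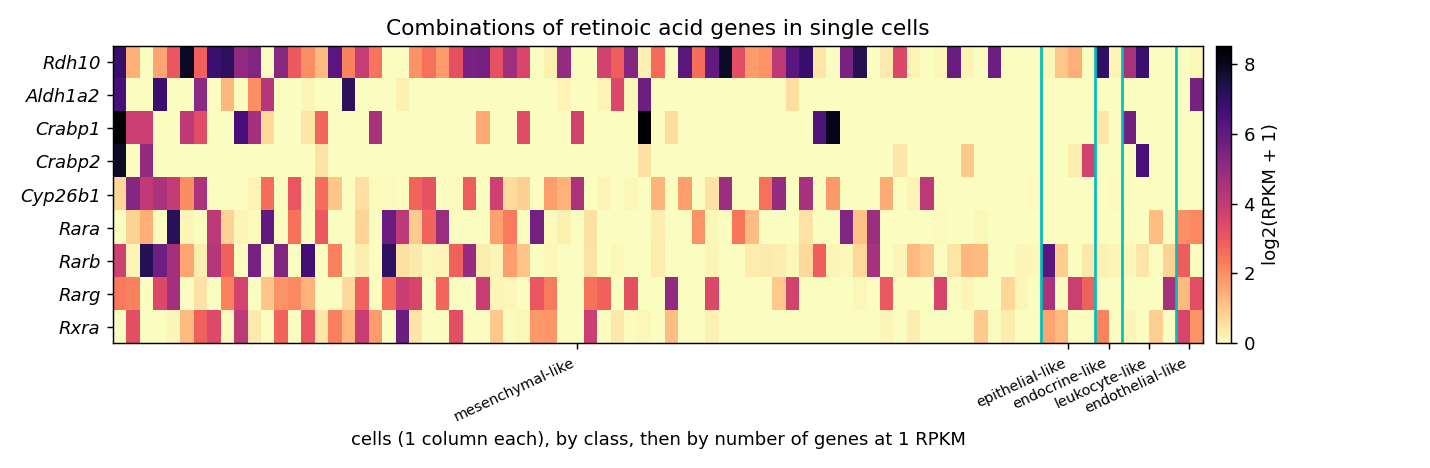
Level of the 9 genes (rows, log2(RPKM + 1) in colour) in 81 cells (columns), by class and then by number of the genes at 1 RPKM. Rdh10 fills most columns, Aldh1a2 and Crabp2 are sparse, and 1 cell holds 6 of the genes.

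Cells held a median of 2 of the 9 genes, 31 cells held exactly 2, and C13, C24, C45 and C86 held none. The 36 pairs had rank correlations between -0.17 and 0.33 over mesenchymal-like cells, with a median of 0.01, and 33 (91.7%) were under 0.2 in size. Over all pairs of the 7041 genes the median was 0.02 and 89.2% were under 0.2, which is close to the values of the members. The sets are not alike, because the 7041 genes had to reach a set share of mesenchymal-like cells. Aldh1a2 (9 of 69) and Crabp2 (2 of 69) did not reach it, and their pairs are among the 36. The comparison therefore does not place the members against a matched background. The highest of the 36 pairs, Crabp1 with Crabp2, rests on 2 cells, C8 and C29. Rdh10 and Aldh1a2 were both found in 7 cells (8.64%, 3.55% to 16.999%), while 45 cells had Rdh10 without Aldh1a2 and 3 had Aldh1a2 without Rdh10. Aldh1a2 was found in 13.5% of the cells with Rdh10 and in 10.3% of the others. Source and sink were found together in 3 cells, C11, C34 and C38, of the 10 with Aldh1a2 and 26 with Cyp26b1 (rho -0.05). Cyp26b1 was thus found in 3 of 10 cells with Aldh1a2 and in 23 of 71 without (32.4%). A binding protein gene was found in 4 of the 10 cells with Aldh1a2 and in 14 of the 71 without. A retinoic acid receptor gene was found in 6 of the 10, against 55 of all 81 cells (67.9%).

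Cell C29 held 6 of the 9 genes, the most of any cell: Crabp1 at 365.7 RPKM, Crabp2 at 231.4, Rdh10 at 117.5, Aldh1a2 at 92.1, Rarb at 12.5 and Rarg at 4.25. It also had the mesothelial markers Wt1 (58.4 RPKM) and Upk3b (3.87) and the epithelial marker Epcam (13.3), with Col3a1 at 73.7 and Tcf21 at 0. Upk3b was found in 3 cells in all, and C29 was the only one of them with Aldh1a2. Wt1, which mesothelium and visceral mesenchyme both use, was found in 6 of the 10 cells with Aldh1a2 and in 48 of the 71 without. A wider presence of Aldh1a2 in cells with Upk3b was not measurable from 3 cells. C29 was chosen after its values were seen.

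Between the 6 cells of the epithelial side (epithelial-like and endocrine-like) and the 69 mesenchymal-like cells, 4 of the 9 genes were lower on the epithelial side by at least 1 log2 unit and none was higher. Over the 13237 genes above 0 in at least 3 cells, 4.62% were lower by that much and 17.6% higher. The differences of mean log2(RPKM + 1) were -1.30 for Rdh10, -1.22 for Cyp26b1, -1.07 for Rara and -1.02 for Crabp1. The other 5 were -0.63 for Aldh1a2, 0.05 for Rarb, 0.08 for Rxra, 0.44 for Crabp2 and 0.68 for Rarg. On this scale a gene can be lower by 1 unit only if its mean over mesenchymal-like cells is at least 1. That mean was 0.63 for Aldh1a2, 0.76 for Rxra and 0.22 for Crabp2, so these genes could not be called lower. The same bound applies to the share over all genes. The median of the 9 was -0.63 and that of all genes tested 0.09. Each of the 4 differences was smaller than the SD over mesenchymal-like cells (1.68 to 2.52), and cells of both sides overlapped at 0.

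Of these 4, the difference of Cyp26b1 stayed past 1 unit whichever cell was left out (-1.24 to -1.16). Its epithelial-side mean was 0.01, with 0 of 6 cells at 1 RPKM, so leaving out 1 cell there could hardly move it. The epithelial-side means of Crabp1 (0.07) and Rara (0) were near 0 as well. Rdh10 came to -0.97 without C82 and -2.37 without C56, Rara to -0.98 without C19, and Crabp1 was short of 1 unit without any single one of C6, C8, C12, C18, C25, C28, C29, C33, C35, C38, C77, C80, C83 and C87 (-0.996 to -0.91). Rara was also short of 1 unit without C34 or C37. Rarg passed 1 unit (1.05) without C24, C43 or C56, and Rarb came to -0.92 without C95. Without C3, C45 and C91, which held epithelial, endocrine, leukocyte or neural crest and glial markers, Rara came to -0.98. With the 5 cells that held mesothelial or pericyte markers left out as well, Rara came to -0.97, and the other 3 stayed past 1 unit in both cases.

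The wider pathway gave the setting. Of 56 further retinoid genes in the table, 11 were detected in no cell and 12 in at least 50% of cells (21.4%, against 13.1% of all 22869 genes). These 12 were the retinol and retinaldehyde enzyme genes Rdh13 (62 cells) and Adh5 (52), the fatty acid and retinoic acid binding protein gene Fabp5 (46), the coregulator genes Ncor1 (76), Crebbp (64), Ncoa3 (62), Rere (47), Nrip1 (43) and Ncoa6 (43), and the target genes Nr2f2 (80), Meis1 (78) and Meis2 (78). Fabp5, which can carry retinoic acid to another class of receptor, was thus found in more cells than Crabp1 and Crabp2. The retinol receptor gene Stra6 was found in 9 cells, all mesenchymal-like.

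On the epithelial side 5 of the 42 tested pathway genes were lower by at least 1 log2 unit (11.9%, against 4.62% of all genes tested) and 7 higher (16.7%, against 17.6%), so the share higher was near that of all genes. The lower ones were Meis1 (-1.62), Meis2 (-1.42), Ncoa3 (-1.32), Rarres2 (-1.30) and Hoxa5 (-1.04). The higher ones were Ttr (6.22), Rbp4 (3.32), Isl1 (2.998), Adh5 (2.53), Tgm2 (1.502), Rxrb (1.45) and Rere (1.21). Ttr and Rbp4, which carry retinol in blood, are also known endocrine pancreas genes; Rbp4 reached 1642 RPKM in C56 and Ttr 7518 RPKM in C24, and Ttr is on the marker list that named these cells, so its difference is a description.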

How the data were processed

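Full-length cDNA of 81 cells was made with SMARTer chemistry and Nextera XT libraries, per the labels' protocols. CASAVA 1.8.2 and build mm9 are named in the submitters' processing notes; the aligner, counter and cell filter were not given in the sources used here. In all, 81 cell columns with 29510 transcript rows were deposited; the unit is unstated and was read as RPKM computed by the authors, since values times length fall on whole reads (median share within 0.15 of a whole read 82.2%, lowest 79.0% of low values). Lengths came from GENCODE vM21, never its coordinates. No 2 cells had the same values (highest Pearson r between cells 0.68), and isoforms share reads.

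Levels were put on log2(RPKM + 1); such differences understate the change of low genes. Clusters came from 1000 variable genes, 10 principal components and 10 Ward clusters, named from marker lists at 10 RPKM in at least 50% of the cells with at least 3 markers; no doublet caller was run. Members and lists were chosen with earlier results of these data known. Genes named are the 9 members, pathway genes in at least 50% of cells or past 1 log2 unit, Wt1, Tcf21, Upk3b and class markers. The 5 genes nearest to members in at least 10 cells are also named. C29, the comparisons of Dhrs3, Stra6 and Cyp26a1 with Rarb, and the Tlx1 and Nkx2-5 counts were added after values were seen. Intervals are Clopper-Pearson at 95%, and 3 counts are the limit set for a count of 0; neither covers more than counting error, as the reads carry no molecular identifiers and are not independent. On simulated data the depth estimate and a planted copy of each gene were recovered; clusters recovered a planted class with its own marker genes but split one planted by fold changes alone, and between 6 cells and the rest many unchanged genes also passed 1 log2 unit, so that unit is a size and not a test. Python 3.11.15, pandas 2.3.3, scipy 1.17.1 and matplotlib 3.10.9 were used.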

Additional observations from a re-analysis of the deposited data

How the results depend on the processing

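Detection shares moved most with the threshold. With any value above 0 they were 76.5% for Rdh10, 49.4% for Cyp26b1, 45.7% for Rara, 70.4% for Rarb, 50.6% for Rxra, 17.3% for Rdh10 with Aldh1a2 and 92.6% for at least 1 receptor gene of Rara, Rarb and Rarg; at 10 RPKM they were 37.04% for Rdh10, 13.6% for Cyp26b1 and for Rarg, 11.1% for Rara, 14.8% for Rarb, 6.17% for Rxra, 1.23% for Rdh10 with Aldh1a2 and 30.9% for at least 1 receptor gene. Aldh1a2 was at 22.5% in cells numbered 1 to 48 and 2.44% in those numbered 49 to 96. The other 61 of 78 alternative shares, among them all those without low-depth cells, stayed within the main interval. Rdh10, Aldh1a2, Crabp1, Crabp2, Rarb and Rxra have 1 transcript row each. For them the shares and levels from the sum or mean of rows could not differ from the main ones. With a pseudocount of 0.1 the mean log2 levels were -2.24 for Aldh1a2, -1.59 for Crabp1, -2.73 for Crabp2, -1.07 for Cyp26b1, -1.26 for Rara, -0.70 for Rarg and -1.42 for Rxra, as the construction of the scale sets; the other 29 of 36 stayed within 1 SD.

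No called difference between the epithelial side and the mesenchymal-like cells changed sign, and all 81 alternative differences stayed within 1 SD over mesenchymal-like cells. The epithelial-side means of Rara (0), Cyp26b1 (0.01) and Crabp1 (0.07) were near 0, so a change of sign was hardly possible with those 6 cells. For the 4 called genes the SD (1.68 to 2.52) was larger than the difference, so it is a wide bound. Rdh10 at -2.27 without endocrine-like cells still counted as within it. The differences with no filter on low values repeat the main ones by construction. With 8 clusters the classes held the same 6 and 69 cells, and the differences were identical. These settings add nothing to the counts of values that stayed. The genes lower by 1 log2 unit were 2 with 12 clusters (Rdh10 and Cyp26b1) and 3 to 5 under the other 8 alternatives. Cyp26b1 was among them under all 9, the settings that repeat the main values included, and Rdh10 under all but the one without low-depth cells (-0.995). Rara was at -0.24 when cells were classed by their own markers. Genes higher were 1 with a pseudocount of 0.1 (Crabp2) and 1 without endocrine-like cells (Rarg); the share of all genes lower and higher with that pseudocount was 10.5% and 31.4%. Rank correlations moved for Crabp1 with Crabp2 (0.20 over all 81 cells and 0.20 over cells numbered 49 to 96), Rarg with Rxra (0.091 over cells numbered 1 to 48), Aldh1a2 with Cyp26b1 (0.079 as Pearson's r on log2 values and -0.23 over cells numbered 49 to 96) and Rdh10 with Col1a1 (0.64 and 0.32 over the sets of cell numbers); the other 28 of 35 stayed within 1 standard error. The alternatives for pairs with Tcf21, Tlx1 and Col1a1, for joint detection, for mesenchymal-like cells alone and without mesenchymal-like cells with other markers were added after seeing the data. Where values moved, the cause was not tested. With 6 cells on the epithelial side and 4 or fewer in each small class, a gene missed in all of them may still be used there: 0 of 6 cells limits little. No paired analysis was possible because the labels give 1 group.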
